A study of Mus musculus with 20 samples.

Results

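Synapses are held together on the receiving side by layers of scaffold proteins and across the cleft by adhesion molecules. At excitatory synapses the PSD-95 family (Dlg1 to Dlg4) anchors glutamate receptors, the SAPAP proteins (Dlgap1 to Dlgap4) tie PSD-95 to the Shank proteins, and Homer proteins link Shanks to metabotropic glutamate receptors, while the kinase CaMKII is both an enzyme and a structural part of this density. Gephyrin (Gphn) is the corresponding scaffold of inhibitory synapses. Neuroligins, LRRTM, Slitrk and netrin-G ligand proteins and Il1rapl1 sit in the postsynaptic membrane and bind partners on the axon, among them the neurexins and receptor tyrosine phosphatases. In the amygdala, the region that evaluates threatening stimuli, such proteins are studied for their part in fear learning and in neurodevelopmental disorders.

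Symbols on the array numbered 19933, counted over the probe sets that carry 1 symbol each. The 35 genes described here were picked by symbol from these families, with earlier results of these data known. They are Dlg1 to Dlg4, Dlgap1 to Dlgap4, Shank1 to Shank3, Homer1 to Homer3, Camk2a, Camk2b and Gphn on the scaffold side. On the adhesion side they are Nlgn1 to Nlgn3, Nrxn2, Nrxn3, Lrrtm1 to Lrrtm4, Slitrk1 to Slitrk5, Lrrc4, Lrrc4b, Lrrc4c and Il1rapl1. The families are not complete here, since Camk2d, Camk2g, Slitrk6 and Dlgap5 were measured and belong to the further genes followed below. All 35 had a probe set of their own, and where a gene had several (Dlgap1, Shank2, Homer2 and Slitrk2) the brightest was used. Their mean normalized log2 signals ran from 7.12 to 11.57, and all 35 lay above the median probe set at 6.72.

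Amygdala RNA, left and right sides together, of 20 male mice on a C57BL/6 background (C57BL/6J in the study's methods) and 7 months of age was hybridized with 1 mouse per array. WT and KO mice for 5-HTT, the serotonin transporter encoded by Slc6a4, descended from heterozygous parents, so that the knockout was present in every tissue and throughout development. WT stress and KO stress mice spent 1 min in water of 22 °C, WT con and KO con mice spent 1 min in the home cage, and each of these 4 groups held 5 mice. Per the study's methods, all mice were then anaesthetized with isoflurane and decapitated, and the tissue was lysed within minutes of the start. Differences after stress below refer to this short time only. All mice had been housed singly and had been tested on an elevated plus-maze before. Whole amygdala pieces hold many cell types, so that fewer cells of a type and less RNA per cell cannot be told apart in any value below.

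Of the 35 genes, 27 have a promoter in the RefSeq sequences of GRCm38.p6, with 43 start sites in all, and the 250 bases before each start were searched on both strands for 3 binding motifs of activity-induced transcription. The full cyclic AMP response element, TGACGTCA, was found before 1 member start (the second of Slitrk2) and in 1.546% of all 32851 windows. Its core TGACG, which the full element contains, was found before 4 member starts (Dlg3, Dlg4, Homer1 and Slitrk2) and in 17.765% of all windows. The Egr motif GCGTGGGCG was found before Shank3 and in 0.536% of all windows. The windows below belong to Homer1, the classical activity-induced gene of the set and the member window with 3 such cores, and to Camk2b and Slitrk3, whose interaction of genotype and stress, given below, kept an unadjusted p under 0.05 in all 29 alternatives. Capitals mark the core TGACG, in the Homer1 window at chr13:93303507-93303756 (plus strand), and the windows of Camk2b at chr11:6065749-6065998 (minus strand) and of Slitrk3 at chr3:73057067-73057316 (minus strand) hold none of the 3 motifs.
Homer1: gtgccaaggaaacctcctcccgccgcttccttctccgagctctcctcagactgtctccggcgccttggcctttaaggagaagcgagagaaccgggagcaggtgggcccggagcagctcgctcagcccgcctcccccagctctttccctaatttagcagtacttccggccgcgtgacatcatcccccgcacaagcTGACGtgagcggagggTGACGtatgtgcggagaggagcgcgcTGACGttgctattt
Camk2b: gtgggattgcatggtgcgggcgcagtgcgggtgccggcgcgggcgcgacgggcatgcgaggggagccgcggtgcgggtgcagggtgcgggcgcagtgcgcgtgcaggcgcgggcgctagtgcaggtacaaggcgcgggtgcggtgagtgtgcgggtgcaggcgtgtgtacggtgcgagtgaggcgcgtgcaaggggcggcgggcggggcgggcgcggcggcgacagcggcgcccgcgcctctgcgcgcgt
Slitrk3: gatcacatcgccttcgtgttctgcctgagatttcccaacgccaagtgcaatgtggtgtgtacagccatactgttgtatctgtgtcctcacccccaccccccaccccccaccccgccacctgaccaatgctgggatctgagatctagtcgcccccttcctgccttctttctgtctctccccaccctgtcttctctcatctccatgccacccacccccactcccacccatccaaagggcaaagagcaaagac
The windows differ in base composition, with G and C making up 62.4% of the Homer1 window, 78.4% of the Camk2b window and 57.6% of the Slitrk3 window. A motif match is a description of these letters and was not tested as a binding site.

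Pairs of arrays correlated at 0.948 to 0.996. The arrays least like the others were WT stress replicate 1, with a median correlation of 0.961, and WT con replicate 1, with 0.978, and both are called arrays that stand apart below. The Slc6a4 signal lay between 5.82 and 7.82 in WT arrays and between 8.10 and 8.38 in KO arrays. It was thus higher where the labels say KO. No source used here places its probes against the deleted segment, so that this signal does not check the labels, and WT and KO denote the labels of the arrays throughout.

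No member passed an adjusted p of 0.05 in any comparison (limma, Benjamini-Hochberg over all 28767 probe sets). The smallest adjusted p of a member was 1 after stress in WT, 1 after stress in KO, 0.929 between genotypes in con, 0.530 between genotypes in stress and 1.00 for the interaction. All differences below are therefore nominal, that is, picked at an unadjusted p under 0.05, and are read against the share of all probe sets that passed the same threshold. Adjusted calls made up 0% of all probe sets in WT stress vs. con, 0% in KO stress vs. con, 0% in con KO vs. WT, 0.00348% (1 probe set, no member) in stress KO vs. WT, and 0% for the interaction.

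In WT mice 5 members differed nominally after stress in the unpaired fit. Camk2b, Dlgap2, Lrrtm4 and Slitrk3 were higher, and the presynaptic adhesion gene Nrxn2 was lower. A fit that pairs the WT arrays by replicate number gave 7, with Dlgap3, Homer1 and Il1rapl1 added and Slitrk3 lost. The 5 are 14.3% of the 35 members, beside 3.54% of all probe sets. In the higher direction 2.99% of all probe sets passed, and in the lower direction 0.556%. The median difference of the members was 0.08 on the log2 scale with 22 of 35 above 0, beside a median of 0.03 and 62.8% above 0 over all probe sets. No member reached the study's criterion (more than 1.5-fold at an unadjusted p under 0.05), which 0.24% of all probe sets reached. Homer2 reached it without WT con replicate 1, and Slitrk3 without WT con replicate 2. For no member did the WT stress and WT con arrays separate without overlap, as they did for 0.257% of all probe sets.

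Camk2b, the beta subunit of CaMKII that binds actin filaments in spines, had log2 values of 10.63, 10.62, 10.55, 10.52 and 10.31 in WT con replicates 1 to 5. In WT stress replicates 1 to 5 it had 10.59, 10.74, 10.83, 11.19 and 11.06. Replicates 2 to 5 of WT stress lay above every WT con array, and replicate 1 lay within their range. The difference of the group means was 0.35 (SE 0.11), a fold of 1.28 (limma unadjusted p = 0.00343, exact two-sided permutation p = 0.0238). In KO the values were 10.99, 10.59, 10.56, 10.54 and 10.68 in con and 10.74, 10.55, 10.63, 10.68 and 10.61 in stress, a difference of -0.03 (SE 0.11). The 2 KO groups overlapped, and the single highest KO array was a con array. Camk2a, the alpha subunit and partner of Camk2b in the same holoenzyme, ranged from 11.25 to 11.77 in WT con and from 11.20 to 12.13 in WT stress, a difference of 0.11 (SE 0.18).

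Dlgap2, a SAPAP linker between PSD-95 and Shank, had 8.35, 7.99, 8.44, 8.15 and 8.23 in WT con and 9.07, 8.33, 8.64, 8.85 and 8.41 in WT stress. WT stress replicates 1, 3 and 4 lay above all WT con arrays. The difference was 0.43 (SE 0.16), a fold of 1.34 (unadjusted p = 0.0167, exact permutation p = 0.0397). Without WT stress replicate 1, the array that stands apart, it was 0.32 with an unadjusted p of 0.0591. In KO, Dlgap2 had 8.87, 8.24, 7.88, 8.40 and 8.52 in con and 8.06, 8.31, 8.19, 8.53 and 8.32 in stress, with the stress arrays inside the con range.

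Nrxn2 encodes a neurexin, the axonal partner of neuroligins and LRRTMs. It had 9.78, 9.73, 9.85, 9.91 and 9.96 in WT con and 9.20, 9.73, 9.89, 9.25 and 9.61 in WT stress. WT stress replicates 1, 4 and 5 lay below every WT con array, and replicates 2 and 3 lay among them. The difference was -0.31 (SE 0.11, unadjusted p = 0.00970, exact permutation p = 0.0556). It was -0.01 (SE 0.11) in KO, where con ran from 9.62 to 9.90 and stress from 9.67 to 9.87. Nrxn3, the other neurexin measured, differed by 0.05 (SE 0.18) in WT, and its WT stress arrays spread from 10.17 to 11.50 while its WT con arrays stayed between 10.68 and 11.00.

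Lrrtm4, a postsynaptic organizer of excitatory synapses, had 8.19, 8.71, 8.79, 8.14 and 8.29 in WT con and 8.95, 8.77, 8.92, 8.62 and 8.53 in WT stress. Replicates 1 and 3 of WT stress lay above all WT con arrays. The difference was 0.34 (SE 0.14, unadjusted p = 0.0229, exact permutation p = 0.0873). The call was lost when WT con replicate 1, 4 or 5 was left out, with an unadjusted p of 0.0651, 0.0720 and 0.0536, and likewise for WT stress replicate 1 or 3, with 0.0602 and 0.0569. In KO the con arrays ran from 8.49 to 8.72 and the stress arrays from 8.17 to 8.78, a difference of -0.13 (SE 0.14).

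Slitrk3, an adhesion protein of inhibitory synapses, had 8.54, 9.24, 8.29, 8.11 and 8.33 in WT con and 8.23, 9.03, 9.07, 9.04 and 9.18 in WT stress. The groups overlapped, with WT con replicate 2 above every WT stress array and WT stress replicate 1 below all WT con arrays except replicate 4. WT stress replicates 2 to 5 lay above the other 4 WT con arrays. The difference was 0.41 (SE 0.19, unadjusted p = 0.0458, exact permutation p = 0.190). Leaving out single arrays moved the difference between 0.31 and 0.59 and the p between 0.00157 and 0.130, and the nominal call was kept only without WT con replicate 2, WT stress replicate 1, KO con replicate 1 or KO con replicate 4. A block of the replicate number in the WT groups also ended it (unadjusted p = 0.121). In KO, Slitrk3 ran the other way, with 9.13, 8.83, 9.03, 8.60 and 8.80 in con and 8.72, 8.46, 8.76, 8.65 and 8.51 in stress, a difference of -0.26 (SE 0.19, unadjusted p = 0.194).

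**Figure D1:**
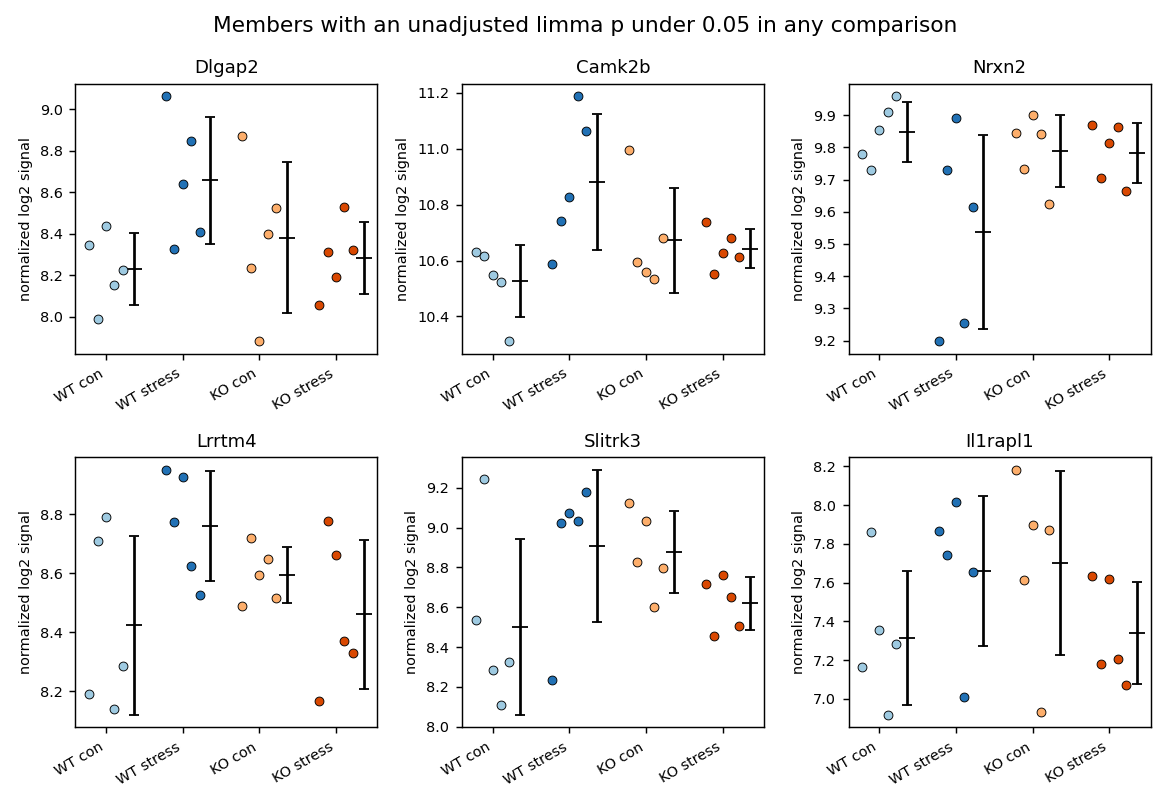
Normalized log2 signal (y axis) of the 6 members with an unadjusted p under 0.05 in any comparison, for each of the 4 groups (x axis). Each point is 1 array, in the order of the replicate numbers, and bars are the mean ± SD, and Camk2b shows 4 WT stress arrays above all WT con arrays.

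In KO mice none of the 35 members differed nominally after stress, at a share of 0.827% of all probe sets higher and 0.306% lower. No member reached the study's criterion (0.139% of all probe sets), and no member separated the groups without overlap (0.289%). The signs were uneven, with 29 of 35 members lower in KO stress and a median difference of -0.07. Over all probe sets 48.5% were higher, and among the 12482 probe sets at least as bright as the dimmest member 40.8% were higher. The count of lower members was 25 after quantile normalization, 31 after centring on array medians and 20 without KO con replicate 1, and without that array the median was -0.02. Differences ran from -0.36 (SE 0.23) for Il1rapl1 to 0.24 (SE 0.27) for Shank2, each within the spread of its groups.

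**Figure D2:**
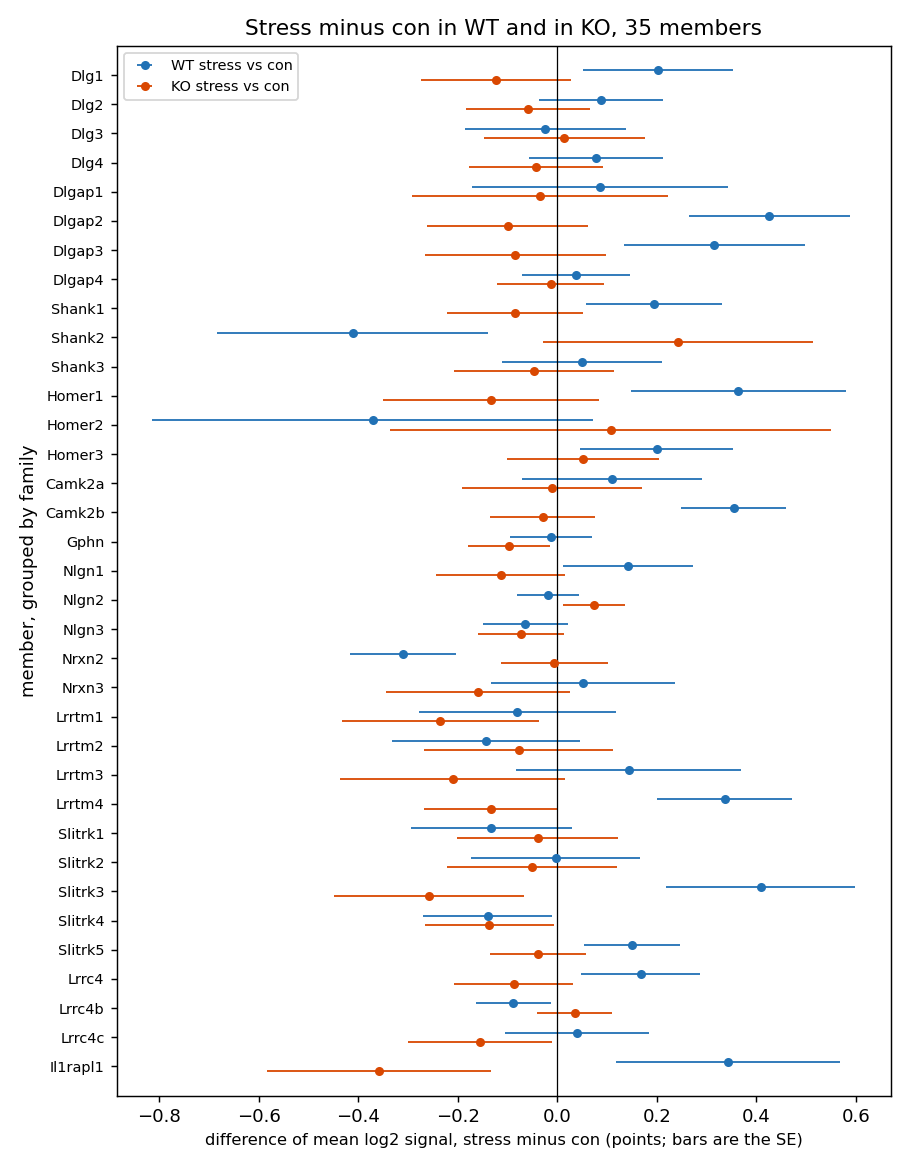
Difference of mean log2 signal, stress minus con (x axis), for the 35 members grouped by family (y axis), in WT and in KO. Points are the differences and bars are the SE, with 22 members above 0 in WT and 6 in KO.

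Between genotypes in the con condition no member differed nominally, at a share of 1.90% of all probe sets higher and 1.67% lower in KO. None met the study's criterion (0.0487%), and none separated the groups (0.855%). In sign, 30 of 35 members were higher in KO con, with a median of 0.10, beside 50.1% of all probe sets and 74.0% of those at least as bright as the dimmest member. The count was 21 of 35 after quantile normalization, with a median of 0.02, and 24 of 35 without WT con replicate 1, with a median of 0.05. The differences furthest from 0 were those of Shank2 at -0.45 (SE 0.27), Il1rapl1 at 0.39 (SE 0.23), Slitrk3 at 0.38 (SE 0.19) and Lrrtm3 at 0.33 (SE 0.23).

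Between genotypes in the stress condition 4 members differed nominally. They are 11.4% of the 35 members, close to the 9.28% of all probe sets that passed. Dlgap2, Camk2b and Lrrtm4 were lower in KO stress than in WT stress, and Nrxn2 was higher. In all, 6.23% of the probe sets were lower and 3.05% higher at this threshold, 0.768% met the study's criterion and 1.02% separated the groups, with no member among the last 2. The WT stress arrays are the same as in WT stress vs. con, so that these 4 differences and those described above share their values. Dlgap2 was lower by -0.37 (SE 0.16, exact permutation p = 0.0397) with 4 KO stress arrays under every WT stress array, and Camk2b by -0.24 (SE 0.11, exact permutation p = 0.0714). Lrrtm4 was lower by -0.30 (SE 0.14, exact permutation p = 0.0714), and Nrxn2 was higher by 0.25 (SE 0.11, exact permutation p = 0.143).

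None of these 4 calls held when each single array was left out. The call of Dlgap2 was lost without WT stress replicate 1 or 4 or KO stress replicate 1 or 3, with unadjusted p-values of 0.107, 0.0753, 0.0810 and 0.0612 in that order. That of Camk2b was lost without WT stress replicate 4 or 5 or KO stress replicate 2, 3 or 5, with 0.126, 0.0984, 0.0753, 0.0573 and 0.0611. That of Nrxn2 was lost without WT stress replicate 1 or 4 or KO stress replicate 1, 3 or 4, with 0.119, 0.113, 0.0691, 0.0568 and 0.0680. That of Lrrtm4 was lost without WT stress replicate 1, 2 or 3 or KO stress replicate 1, 4 or 5, with 0.0976, 0.0616, 0.0922, 0.120, 0.0770 and 0.0851.

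Whether the response to stress itself differed between genotypes was tested as the interaction, the KO difference minus the WT difference. It was nominally negative for 5 members, Camk2b, Slitrk3, Lrrtm4, Dlgap2 and Il1rapl1, at a share of 1.81% of all probe sets negative and 0.702% positive. The interaction was -0.38 (SE 0.15, unadjusted p = 0.0190) for Camk2b and -0.67 (SE 0.27, unadjusted p = 0.0236) for Slitrk3, and these 2 kept a p under 0.05 in all 29 alternatives. It was -0.47 (SE 0.19, unadjusted p = 0.0245) for Lrrtm4 and -0.53 (SE 0.23, unadjusted p = 0.0337) for Dlgap2. The call of Lrrtm4 was lost without WT con replicate 4 (unadjusted p = 0.0515) or KO stress replicate 1 (unadjusted p = 0.0517). The call of Dlgap2 was lost in 8 of the single-array omissions (WT con 2 and 4, WT stress 1 and 4, KO con 1 and 5, KO stress 1 and 3), where the interaction stood between -0.40 and -0.51.

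Il1rapl1, which binds the axonal phosphatase PTPRD, had the interaction furthest from 0 at -0.70 (SE 0.32, unadjusted p = 0.0409). Its values were 7.16, 7.86, 7.35, 6.92 and 7.28 in WT con and 7.87, 7.74, 8.01, 7.01 and 7.65 in WT stress. In KO they were 8.18, 7.62, 7.90, 6.93 and 7.87 in con and 7.63, 7.18, 7.62, 7.20 and 7.07 in stress. WT stress replicates 1 and 3 lay above every WT con array, KO con replicates 1, 3 and 5 lay above every KO stress array, and replicate 4 was low in WT con, WT stress and KO con. The call was lost in 14 of 20 single-array omissions and was kept without WT con 2, WT stress 4, KO con 2, KO con 4, KO stress 1 or KO stress 3, and the interaction stayed between -0.58 and -0.89. Slitrk3 and Il1rapl1 were the 2 members whose interaction met the study's criterion, which 0.591% of all probe sets met. Without WT con replicate 4 neither did, and Slitrk3 met it in each of the other 19 single-array omissions. Over the 35 members the median interaction was -0.15 with 26 negative, beside 40.3% positive over all probe sets.

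The other scaffold genes moved little or spread widely. In the PSD-95 family the WT stress differences ran from -0.02 to 0.20 and the KO stress differences from -0.12 to 0.01. Dlg4, which encodes PSD-95 itself, had 10.39 to 10.86 in WT con, 10.44 to 11.08 in WT stress, 10.47 to 11.07 in KO con and 10.64 to 10.91 in KO stress, 4 overlapping ranges. Dlg2, with a mean of 10.99 over all arrays, differed by 0.09 (SE 0.12) in WT and by -0.06 (SE 0.12) in KO, and Dlg3, with a mean of 9.16, by -0.02 (SE 0.16) and 0.01 (SE 0.16). All 4 SAPAP genes had a positive difference in WT stress and a negative one in KO stress, from 0.04 to 0.43 and from -0.10 to -0.01, and after quantile normalization Dlgap1 and Dlgap4 turned positive in KO stress. Dlgap2 passed the nominal threshold in WT, and Dlgap3 did so in the paired fit. Dlgap1, with a mean of 10.02, differed by 0.09 (SE 0.26) and -0.03 (SE 0.26). Its second probe set, with a mean of 9.68, was negative in both, at -0.04 (SE 0.18) in WT and -0.04 (SE 0.18) in KO, so that the shared sign in WT depends on the probe set.

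Homer1, whose short form is induced by activity and uncouples the long Homer proteins, had 9.06, 8.85, 9.35, 9.14 and 8.76 in WT con and 9.94, 9.40, 9.48, 9.34 and 8.83 in WT stress. Replicates 1, 2 and 3 of WT stress lay above all WT con arrays. The difference was 0.36 (SE 0.22, unadjusted p = 0.110, exact permutation p = 0.111), and in KO it was -0.13 (SE 0.22). The probe set gives 1 value for the gene, so that its short and long forms were not separated. In the fit that pairs the WT arrays Homer1 was among the 7 members with a p under 0.05.

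Homer2 was the most variable member, with a within-group SD of 0.74 that exceeded that of 99.3% of all probe sets. Its values were 7.64, 9.66, 10.07, 10.02 and 9.65 in WT con and 8.16, 8.62, 8.87, 9.85 and 9.70 in WT stress. In KO they were 8.98, 9.35, 9.92, 10.21 and 8.69 in con and 8.73, 9.71, 9.32, 9.90 and 10.02 in stress. High and low arrays occurred in all 4 groups, and the differences after stress, -0.37 (SE 0.44) in WT and 0.11 (SE 0.44) in KO, lay within that spread. Homer3, with a mean of 7.12, differed by 0.20 (SE 0.15) and 0.05 (SE 0.15).

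The Shank proteins are the core platform of the density. Shank2 had 8.54, 9.12, 8.93, 9.31 and 9.18 in WT con and 8.96, 8.23, 7.92, 9.07 and 8.85 in WT stress, a difference of -0.41 (SE 0.27, exact permutation p = 0.167). Its 3 probe sets did not run the same way, with differences of -0.41 (SE 0.27), 0.17 (SE 0.13) and -0.34 (SE 0.30), none past the nominal threshold. Shank1, with a mean of 9.86, differed by 0.20 (SE 0.14) in WT and -0.08 (SE 0.14) in KO, and Shank3 by 0.05 (SE 0.16) and -0.05 (SE 0.16). Gephyrin, the inhibitory scaffold, stayed close to 9.72 with ranges of 9.51 to 9.92 in WT con, 9.62 to 9.88 in WT stress, 9.62 to 9.94 in KO con and 9.55 to 9.82 in KO stress. Its differences after stress were -0.01 (SE 0.08) in WT and -0.10 (SE 0.08) in KO.

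Of the neuroligins, Nlgn2 and Nlgn3 varied little and Nlgn1 more, with within-group SDs of 0.09, 0.14 and 0.21. Nlgn2, the neuroligin of inhibitory synapses, had an SD above that of 13% of all probe sets and stayed between 9.28 and 9.63 on all 20 arrays. Its differences after stress were -0.02 (SE 0.06) in WT and 0.07 (SE 0.06) in KO. Nlgn3, with a mean of 9.86, differed by -0.06 (SE 0.09) and -0.07 (SE 0.09). Nlgn1, the neuroligin of excitatory synapses, differed by 0.14 (SE 0.13) and -0.11 (SE 0.13), with WT stress arrays spread from 9.16 to 10.11 and WT con arrays from 9.36 to 9.62.

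The LRRTM proteins bind neurexins or heparan sulfate proteoglycans across the cleft. All 4 were lower in KO stress than in KO con by 0.08 to 0.23 on the log2 scale and higher in KO con than in WT con by 0.13 to 0.33, none past the nominal threshold. In WT they split, with Lrrtm1 (mean 7.91) at -0.08 (SE 0.20) and Lrrtm2 (mean 9.70) at -0.14 (SE 0.19) below 0 after stress, and Lrrtm3 at 0.14 (SE 0.23) and Lrrtm4 above. The Slitrk proteins bind the same kind of axonal phosphatases as Il1rapl1. All 5 were negative in KO stress, from -0.26 to -0.04, and positive in con KO vs. WT, from 0.07 to 0.38, where Slitrk1 turned negative after quantile normalization. Apart from Slitrk3 their WT stress differences ran from -0.14 to 0.15, with Slitrk1 (mean 9.37) at -0.13 (SE 0.16) and Slitrk2 (mean 8.24) at -0.003 (SE 0.17). The netrin-G ligands Lrrc4, Lrrc4b and Lrrc4c differed by 0.17 (SE 0.12), -0.09 (SE 0.08) and 0.04 (SE 0.14) in WT, with none past limma's nominal threshold in any comparison.

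Lrrc4c, a ligand of netrin-G1, had 9.33, 9.63, 9.69, 9.66 and 9.62 in WT con and 9.95, 9.92, 9.78, 9.68 and 9.79 in KO con. All KO con arrays except replicate 4 lay above every WT con array. The difference was 0.24 (SE 0.14, unadjusted p = 0.117, exact permutation p = 0.0159). In KO stress it had 9.65, 9.77, 9.67, 9.76 and 9.50, with replicates 1, 3 and 5 below every KO con array, a difference of -0.16 (SE 0.14, unadjusted p = 0.296, exact permutation p = 0.0397). Limma and the exact test thus fell on different sides of 0.05 for this gene, and limma took its spread from all 4 groups, among them WT stress at 9.17 to 10.16.

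**Figure D3:**
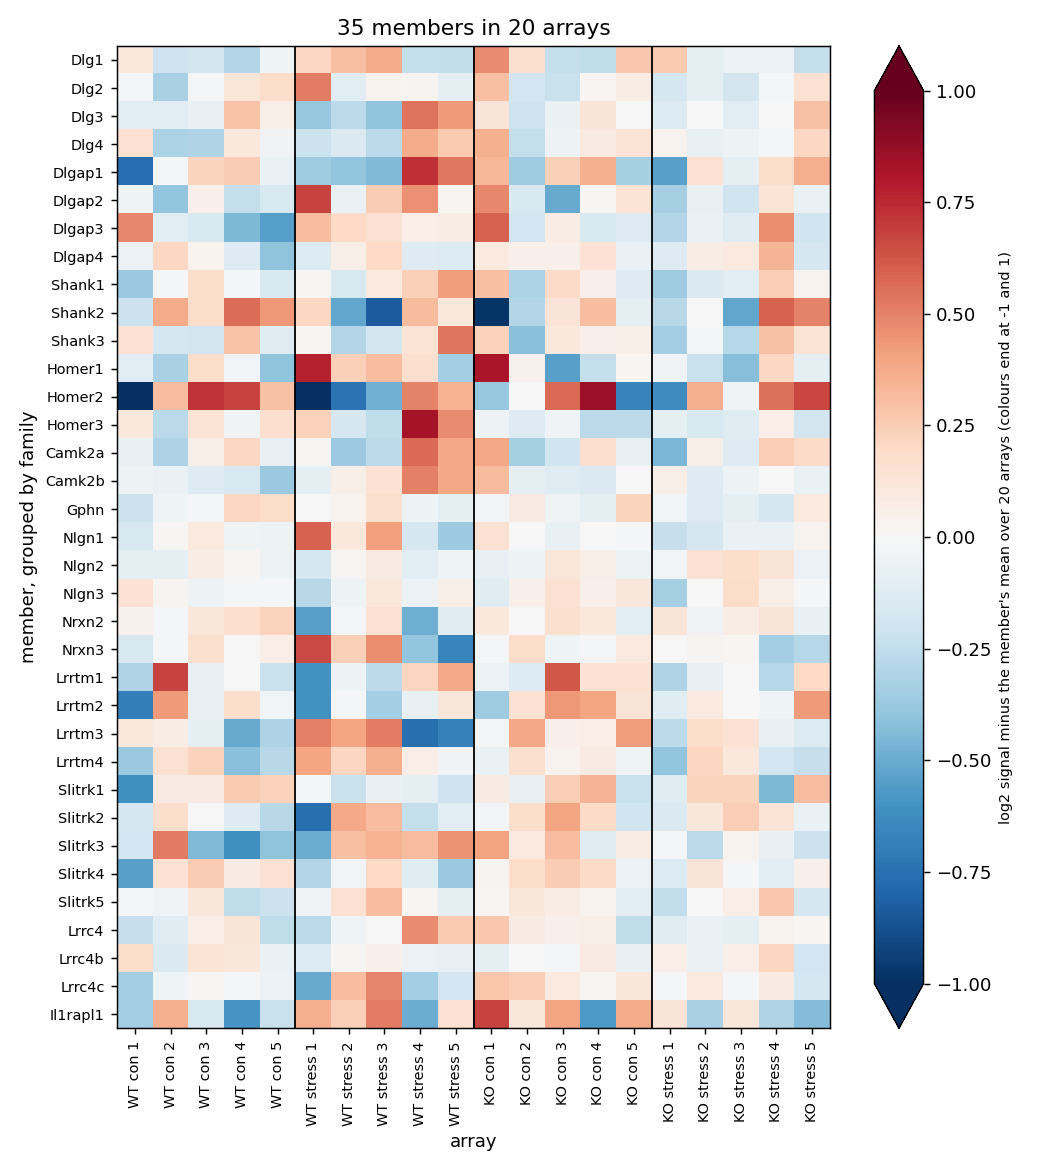
Log2 signal of each of the 35 members (rows, grouped by family) in each of the 20 arrays (columns, by group), as the deviation from the member's mean over all arrays, with colours ending at -1 and 1. Homer2 runs from the lowest to a high colour within WT con alone, and Nlgn2 stays near 0 on all arrays.

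The members did not vary as 1 block. Over the 595 pairs of members deviations from the group means had a median correlation of 0.05, and 56.0% of pairs were positive. The pairs are descriptions over 20 arrays, which share tissue pieces and array quality. The median within-group SD of the members was 0.25, beside 0.18 over all probe sets. Single pairs, picked from the 595 for their high r, were close. The r was 0.85 for Dlgap1 and Homer2, 0.83 for Dlgap4 and Slitrk5, and 0.83 for Dlg3 and Dlg4. It was 0.82 for Nlgn1 and Nrxn3, 0.82 for Shank1 and Dlgap1, and 0.82 for Camk2a and Dlg3. It was 0.81 for Lrrtm3 and Nrxn3, 0.80 for Lrrtm1 and Lrrtm2, and 0.80 for Shank3 and Camk2a.

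The first component of these deviations held 43.2% of the members' variance and the second 17.8%. Loadings on the first were largest for Homer2 (0.61), Dlgap1 (0.35) and Shank2 (0.28) in one direction and for Lrrtm3 (-0.25), Dlg1 (-0.20), Il1rapl1 (-0.19) and Nrxn3 (-0.18) in the other, and 19 of 35 loadings were positive. In WT stress the contrast showed array by array. Dlgap1 was at 9.66, 9.63, 9.57, 10.75 and 10.54 in replicates 1 to 5, and Nrxn3 at 11.50, 11.08, 11.30, 10.44 and 10.17. Replicates 4 and 5 were thus the highest of the group for Dlgap1 and the lowest for Nrxn3, and replicates 1 to 3 the reverse.

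Other genes of the same machinery were followed in 2 lists. Nominal shares are given for the scaffold list, the adhesion list and all probe sets, in that order. They were 10.5%, 2.33% and 3.54% in WT stress vs. con, and 0%, 0% and 1.13% in KO stress vs. con. They were 7.89%, 2.33% and 3.57% in con KO vs. WT, and 5.26%, 4.65% and 9.28% in stress KO vs. WT. For the interaction they were 2.63%, 2.33% and 2.52%. Of 38 further postsynaptic scaffold and signalling genes measured, 27 were higher in WT stress (median 0.09), with 3 nominally higher and 1 nominally lower. Those were the actin regulator and Shank partner Baiap2 (0.59, SE 0.27, past the study's criterion), the membrane-associated guanylate kinase Mpp3 (0.31, SE 0.14), the Arf exchange factor Iqsec2 (0.28, SE 0.13) and Lhfpl4, a GABA-A receptor partner at inhibitory synapses (-0.18, SE 0.09). In KO stress none of the 38 differed nominally and 27 were lower. In con KO vs. WT 30 were higher and 3 nominally so, Mpp2 (0.21, SE 0.07, exact permutation p = 0.0159), the PSD-95 ligand Cript (0.27, SE 0.11) and Magi3 (0.40, SE 0.18). In stress KO vs. WT the exchange factor Kalrn was lower (-0.38, SE 0.18) and the CaMKII subunit gene Camk2d higher (0.42, SE 0.19), and for the interaction Mpp3 was negative (-0.43, SE 0.20).

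Of 43 further synaptic adhesion genes 21 were higher in WT stress (median -0.01). The single nominal difference was that of Il1rap, which binds the same axonal phosphatase as Il1rapl1 (0.59, SE 0.19, exact permutation p = 0.0635), past the study's criterion. The study had itself listed Il1rap, and Baiap2 of the scaffold list, as higher in WT stress, so neither is a separate finding. Il1rap was also lower in KO stress than in WT stress by -0.51 (SE 0.19, exact permutation p = 0.0238), and its interaction was -0.70 (SE 0.26), past the same criterion. In KO stress vs. con none of the 43 differed nominally. Flrt3, a ligand of latrophilins, was higher in KO con than in WT con by 0.34 (SE 0.16). Lrfn2, an adhesion protein that binds PSD-95, was lower in all 5 KO stress arrays than in every WT stress array, by -0.24 (SE 0.08, exact permutation p = 0.00794, the smallest possible with 5 arrays against 5). Such a separation of these 2 groups occurred for 1.02% of all probe sets, and Lrfn2 was picked from the list by its p.

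Markers of cell types and neighbouring tissue also differed in mean between groups, while the summed signals of each list overlapped between the groups. All 11 measured markers of pallial excitatory neurons had a higher mean after stress in WT (median difference 0.54), and their summed linear signal ran from 2798 to 4338 in WT con, 3391 to 8732 in WT stress, 2976 to 9232 in KO con and 2659 to 5374 in KO stress. Their mean centred log2 signal was 0.56, -0.30, -0.30, 0.96 and 0.79 in WT stress replicates 1 to 5, and 0.79 in KO con replicate 1, the KO con array with the highest Camk2b. In WT stress replicates 4 and 5 it was highest, as was Camk2b, and in replicate 1 it was above 0 while Camk2b was the lowest of the group. Of 10 striatal and central amygdala markers 9 were higher in WT stress (median 0.43), with sums of 4514 to 15530 in WT con and 3958 to 13190 in WT stress. Of 12 GABAergic markers 8 were lower (median -0.33), with sums of 8357 to 11230 and 5456 to 11070. The part of these cell types in the differences of Camk2b, Dlgap2, Nrxn2, Lrrtm4 and Slitrk3 was not tested.

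In KO stress vs. con all 12 pan-neuronal markers were lower (median -0.10, sums of 23400 to 27110 in KO con and 22020 to 25010 in KO stress), beside 29 of 35 members. Lower signs were not confined to neuronal markers. Of the oligodendrocyte markers 10 of 11 were lower (median -0.08), of the microglia markers 10 of 11 (median -0.04) and of the astrocyte markers 6 of 12. All 10 choroid plexus markers (median 1.01, sums of 1085 to 2726 and 1761 to 14620) and all 12 markers of meninges and fibroblasts (median 0.78, sums of 1494 to 2404 and 2140 to 7155) were higher. In con KO vs. WT all 12 pan-neuronal markers were higher (median 0.16, sums of 21020 to 26240 in WT con), beside 30 of 35 members. In that comparison 9 of 11 microglia markers (median 0.19, 2 nominally), 8 of 11 oligodendrocyte markers and 8 of 12 astrocyte markers were higher too. No marker of these lists passed an adjusted p of 0.05 in any comparison, no marker was listed at 0, and their part in the signs of the members was not tested. In stress KO vs. WT, where Dlgap2, Camk2b and Lrrtm4 were nominally lower and Nrxn2 higher, 9 of 11 pallial markers were lower (median -0.36, 1 nominally). In the same comparison 10 of 11 hypothalamic and medial amygdala markers were higher (median 0.56, 4 nominally), with sums of 2860 to 7461 in WT stress and 4702 to 9903 in KO stress. Of 12 GABAergic markers 8 were higher (median 0.34, 4 nominally), with sums of 8902 to 10750 in KO stress, and all 12 markers of meninges and fibroblasts were higher (median 0.48, 1 nominally), with sums of 1590 to 4430 in WT stress. Astrocyte markers were higher for 10 of 12 (median 0.14, 3 nominally) and choroid plexus markers for 9 of 10 (median 0.56). The count higher was 6 of 12 for pan-neuronal, 6 of 10 for striatal and central amygdala, 8 of 11 for oligodendrocyte and 6 of 11 for microglia markers. For the interaction, negative for 26 of 35 members, 10 of 11 pallial markers were negative (median -0.51, 1 nominally). So were 9 of 10 striatal and central amygdala (median -0.63), 10 of 12 pan-neuronal (median -0.07, 1 nominally), 10 of 11 microglia and 7 of 11 oligodendrocyte markers. All 12 markers of meninges and fibroblasts were positive (median 0.72, 1 nominally), as were all 10 of choroid plexus (median 0.77). Positive too were 10 of 11 hypothalamic and medial amygdala (median 0.32), 9 of 12 astrocyte and 8 of 12 GABAergic markers (median 0.26, 2 nominally, with 1 nominally negative). The part of these tissues in the 4 nominal differences and the 5 nominal interactions was not tested.

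All 12 pan-neuronal markers lay at or above the 91.7th percentile of probe sets by mean signal.

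**Figure D4:**
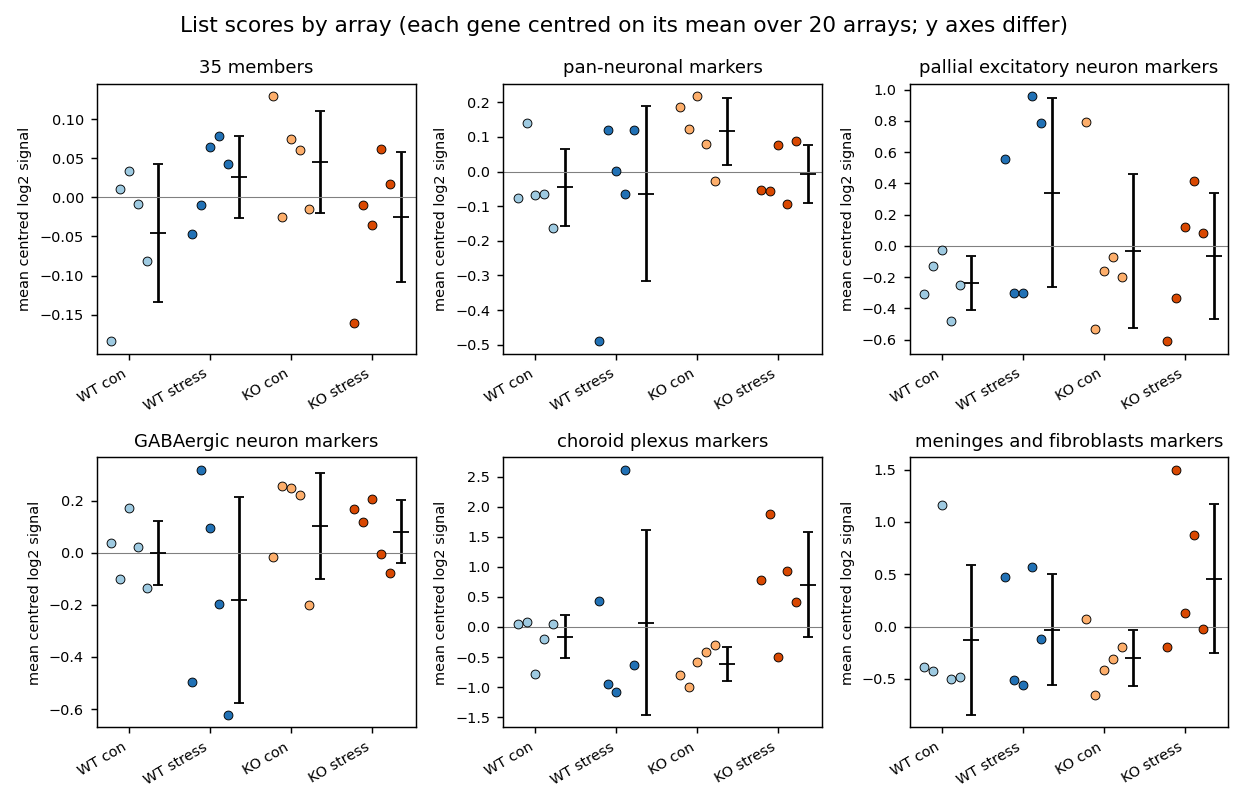
Mean of the log2 signals of a list, each gene centred on its mean over 20 arrays (y axis), for the 35 members and 5 marker lists, by group (x axis). Each point is 1 array, bars are the mean ± SD and the y axes differ, with pallial markers above 0 in 3 WT stress arrays and in no WT con array.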

How the data were processed

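Amygdala RNA of 20 mice, both sides together, was measured on Affymetrix whole-transcript gene arrays. Per the labels and the methods, the authors ran ExonRMA in ArrayAssist on the probe signals, applied a variance stabilization and deposited log2 values for 28767 probe sets, which were used as deposited. Such summaries compress low signals, and 14.6% of probe sets have a mean under 5. Symbols came from the platform's probe table (21776 probe sets with 1 symbol, 21686 matched to RefSeq GRCm38.p6). The number of arrays limits the precision. The replicates are separate mice.

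The main test was limma (version 3.58.1, R 4.3.3), lmFit on 4 group means and eBayes (16 residual and 2.10 prior degrees of freedom), with Benjamini-Hochberg adjustment over all probe sets, tested on simulated data. Exact two-sided permutation tests compared 5 arrays with 5. The study's criterion was counted with limma's p. Alternatives were the methods' t-test, limma on 2 groups alone, quantile normalization, median centring, a filter at a mean log2 of 6, means of probe sets, array weights, replicate blocks, eBayes with a trend and robust estimation, and omission of single arrays or of both arrays that stand apart. For the interaction a linear model on the 4 groups without eBayes took the place of the t-test. Promoters were searched and figures drawn in Python 3.11.15 with matplotlib 3.10.9.

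The members, lists and tests were chosen with earlier results of these data known. Named were, in each comparison, members with an unadjusted p under 0.05, the members with the highest and lowest mean of each family, members whose groups do not overlap, and up to 4 genes of each further list with the smallest p. Homer1, Dlg1, Dlg4, Lrrtm3, Nlgn1, Shank3, Lrrc4b and Lrrc4c were added after their values were seen. Marker lists also covered hypothalamic and medial amygdala neurons (8 of 11 lower in WT stress, median -0.32), astrocytes (9 of 12 lower, -0.09), oligodendrocytes (6 of 11 lower, -0.02) and microglia (7 of 11 higher, 0.05). Levels of different probe sets were used to rank brightness and to sum marker lists, and were not read as relative amounts of RNA.

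The labels number the arrays 1 to 5 without saying what a number means. Between WT con and WT stress the 5 arrays of equal number deviated together (r of 0.162 to 0.420, the rule being over 0.1 for all), which held between no other groups. A block in the WT groups alone follows this rule. A block in all groups was also run as an alternative, although the other groups did not meet the rule.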

Additional observations from a re-analysis of the deposited data

Results flagged for a closer look

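The response to stress differed between genotypes at a nominal p for 5 members, with an interaction (KO difference minus WT difference, log2) of -0.53 for Dlgap2, -0.38 for Camk2b, -0.47 for Lrrtm4, -0.67 for Slitrk3 and -0.70 for Il1rapl1. None passed the adjusted threshold.

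In 7 of the 140 combinations of a member and a group checked, 1 array lay far from the other 4, and chance alone marks about 1 in 20. WT con replicate 1 was low for Homer2 (7.64), Slitrk1 (8.76), Slitrk4 (8.37) and Lrrc4c (9.33). WT stress replicate 1 was high for Dlg2 (11.50) and low for Slitrk3 (8.23). These are the 2 arrays that stand apart over all probe sets. KO con replicate 2 was low for Shank3 (8.83).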

How the results depend on the processing

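None of the 14 nominal differences (6 members) changed sign under any alternative, while 70 of the 161 other differences of members did under at least 1, among them Slitrk2 in WT stress vs. con. The 14 were picked by their p on the same arrays, which makes a change of sign unlikely. This contrast therefore does not measure their stability. Camk2b kept its nominal call in WT stress vs. con in all 31 alternatives, and Nrxn2 in 30. A replicate block in the WT groups, whose arrays it pairs, gave 7 members that had a p under 0.05 in WT stress vs. con, beside 5 without it. A block in all groups gave 1 member in KO stress vs. con (Il1rapl1) and 1 in con KO vs. WT (Il1rapl1). With the methods' t-test the nominal counts were 2 in WT stress vs. con (Dlgap2, Camk2b), 1 in KO stress vs. con (Slitrk3), 1 in con KO vs. WT (Lrrc4c) and 1 in stress KO vs. WT (Dlgap2). With limma on the 2 groups alone they were 2 in KO stress vs. con (Slitrk3, Lrrc4c), 2 in con KO vs. WT (Lrrtm3, Lrrc4c) and 2 in stress KO vs. WT (Dlgap2, Lrrtm4). Array weights gave 2 in con KO vs. WT (Lrrtm3, Slitrk3), 2 in stress KO vs. WT (Camk2b, Slitrk3) and 2 for the interaction (Camk2b, Slitrk3). Without both arrays that stand apart there were 6 in WT stress vs. con (Dlgap3, Camk2b, Nrxn2, Slitrk1, Slitrk3, Slitrk4), 2 in con KO vs. WT (Dlgap3, Slitrk3) and 2 in stress KO vs. WT (Camk2b, Slitrk3). The cause of these shifts was not tested, and the members in brackets were picked with their values known.

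Leaving out single arrays gave 3 to 7 members in WT stress vs. con (3 without WT con replicate 4 or 5), 0 to 1 in KO stress vs. con (Il1rapl1 without KO con replicate 4) and 0 to 2 in con KO vs. WT (2 without WT con replicate 2 or KO con replicate 4, 1 without WT con replicate 1 or WT stress replicate 1). It gave 1 to 6 in stress KO vs. WT (1 without KO stress replicate 3, 2 without WT stress replicate 1 or KO stress replicate 1) and 2 to 6 for the interaction (2 without WT con replicate 4, 3 without KO con replicate 1, KO con replicate 5 or KO stress replicate 1). Over the single-array omissions the median difference of the members ran from -0.089 to 0.015 in stress KO vs. WT, above 0 only without KO stress replicate 1. It ran from 0.05 to 0.11 in WT stress vs. con, from -0.10 to -0.02 in KO stress vs. con, from 0.05 to 0.15 in con KO vs. WT and from -0.19 to -0.09 for the interaction. At the study's criterion the omissions gave 0 to 1 members in WT stress vs. con and 0 to 3 for the interaction (0 without WT con replicate 4, and 3 when KO con replicate 3 or WT stress replicate 5 was omitted), beside 0 and 2 over all arrays. Array weights gave 2 at that criterion in WT stress vs. con (Shank2, Slitrk3) and 1 for the interaction (Slitrk3). The linear model on 4 groups without eBayes gave 1 for the interaction (Slitrk3), which the study's methods did not test. Leaving out both arrays that stand apart gave 1 in WT stress vs. con (Slitrk3).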
